A study of Mus musculus with 6 samples.

Results

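The colony-stimulating factor family of the mouse was followed in cells of bronchoalveolar lavage fluid, recovered by washing the airways with saline. It comprises 8 genes, chosen by name: the ligands Csf1, Csf2 and Csf3 and the receptor chains Csf1r, Csf2ra, Csf2rb, Csf2rb2 and Csf3r. All 8 were found among the 22800 genes of the deposited table. RNA sequencing covered 3 libraries of sulfatide-treated mice (20 µg, injected intraperitoneally; replicates 1, 2 and 3) and 3 libraries of vehicle-treated mice (replicates 2, 3 and 4). Sulfatide is a sulfated glycolipid that CD1d presents to type II natural killer T cells, and the series is titled as a study of alveolar macrophages in lung ischemia and reperfusion. The labels give neither strain nor age, do not say whether these mice underwent ischemia and reperfusion, and do not say whether libraries came from separate animals, so the spread behind each p-value is that of these libraries and may be technical.

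Each of the 3 ligands is named for the blood colonies it supports. Csf1 (M-CSF) acts through the receptor tyrosine kinase Csf1r and keeps macrophages alive. Csf2 (GM-CSF) binds the alpha chain Csf2ra, which signals with the common beta chain Csf2rb through Jak2 and Stat5, and alveolar macrophages need it to form and to clear surfactant. In the mouse a duplicated beta chain, Csf2rb2, serves interleukin 3 alone. Csf3 (G-CSF) acts through Csf3r and drives the production of neutrophils.

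The ligand messages carry AU-rich elements, repeats of ATTTA in the 3′ untranslated region to which decay factors such as Zfp36 bind. They are shown because the ligands were the members that differed most between the groups. In the GENCODE M21 transcripts (GRCm38, the same assembly as mm10) Csf2 had 9 copies of ATTTA in 317 bases of 3′ untranslated region, read on the RNA strand with overlaps counted. Only 2 of 5808 genes with a region of 200 to 700 bases had at least 9 copies (0.0344%, Csf2 included). Of the longer motif TTATTTATT, which contains ATTTA, Csf2 had 4 copies, against at least 4 in 3 of the 5808 genes. Csf3 and Csf1 each had 0 copies of the longer motif. Csf3 had 6 copies of ATTTA in 669 bases, a number that 33 of the 5808 genes reached (0.568%). Csf1 had 4 in 2111 bases, and 47.6% of 3506 genes with regions of 1500 to 2700 bases had at least 4. Among the receptors Csf1r had 3 in 1669 bases, and Csf2ra, Csf2rb, Csf2rb2 and Csf3r had none. The 30 bases richest in ATTTA, written as DNA with each copy in capitals, were as follows.
Csf2: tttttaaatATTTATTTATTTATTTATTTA
Csf3: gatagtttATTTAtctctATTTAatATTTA
Csf1: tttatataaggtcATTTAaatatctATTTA

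FPKM, fragments scaled to transcript length and library total, summed to 1217971 to 1249691 in the sulfatide libraries and to 1126779 to 1168474 in the vehicle libraries. Depth relative to vehicle replicate 2, estimated from ratios of low values, was 0.848 to 1.21 in sulfatide and 1.00 to 1.06 in vehicle libraries, and the absolute depth is unknown. The macrophage markers Adgre1, Cd68 and Lyz2 were abundant in each library, and the 11 macrophage markers summed to 32352 to 43888 FPKM in sulfatide and 35915 to 40623 FPKM in vehicle libraries. Lyz2 made up most of that sum, and the other 10 summed to 7302 to 7997 FPKM in sulfatide and 8421 to 9117 FPKM in vehicle libraries. Cd14, the lipopolysaccharide co-receptor, was the 1 macrophage marker that fell, to 2360 ± 167 FPKM in sulfatide, against 3657 ± 69.6 FPKM in vehicle (SD, n = 3 each; limma adjusted p = 0.00112). The sum without Lyz2 includes this fall of Cd14. Of the 11 markers, 10 were above a limma adjusted p of 0.05. The median log2 fold change of all 11, sulfatide minus vehicle, was 0.07. Genes typical of resident alveolar macrophages were unequal in level. Siglecf was at 0.67 to 0.90 FPKM in sulfatide and 0.08 to 0.26 FPKM in vehicle libraries, without overlap and too low to be tested. Car4 did not exceed 0.91 FPKM, and Fabp1 and Krt79 were listed at 0 throughout. Cd9 averaged 318 ± 23.1 FPKM in sulfatide and 520 ± 70.7 FPKM in vehicle (SD, n = 3 each), Fabp4 and Chil3 had means between 25.1 and 31.2 FPKM in both groups, and Lpl averaged 234 ± 22.0 FPKM in sulfatide and 618 ± 102 FPKM in vehicle. Values were tested as log2(FPKM + 1) with limma for 10405 genes, those at 1 FPKM or more in at least 3 of the 6 libraries, and a gene was called at a Benjamini-Hochberg adjusted p below 0.05 over all of them.

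Sulfatide libraries had less RNA of Csf1, Csf3 and Csf2ra than vehicle libraries, and Csf2 was listed only in vehicle libraries. Of the 7 members tested, these 3 were called lower, 0 were called higher, and Csf1r, Csf2rb, Csf2rb2 and Csf3r were not called. Over all genes 18.7% were called, 10.4% lower and 8.31% higher. After rescaling to TPM 23.4% of the calls over all genes were of higher genes, against 44.5% with FPKM as deposited. The median log2 fold change, sulfatide minus vehicle, was -0.40 over the 7 members and 0.04 over all genes tested. Without vehicle replicate 2, 268 genes were called higher and 642 lower over all genes, against 865 and 1078 with all libraries. The 3 calls of members were made in every alternative run that could test the gene. In such bulk RNA, fewer cells of a type and less RNA per cell cannot be told apart.

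**Figure D1:**
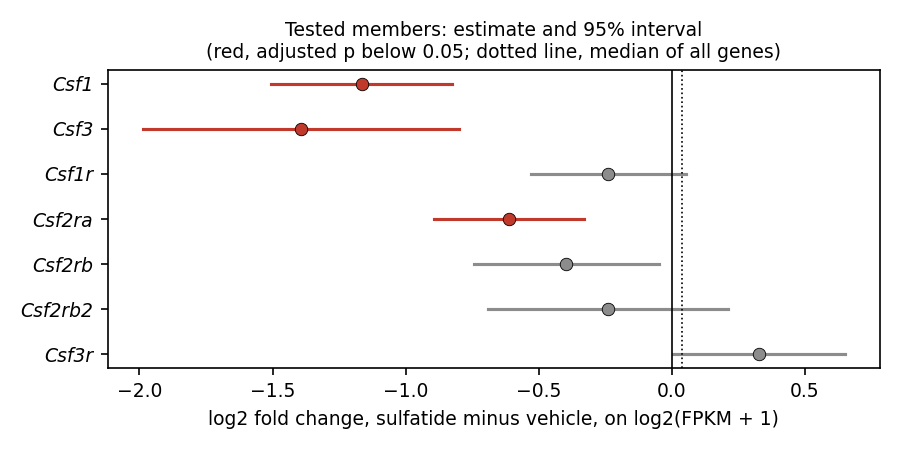
Log2 fold change (sulfatide minus vehicle, on log2(FPKM + 1), horizontal axis) of the 7 tested members, with 95% intervals from limma. Csf1, Csf3 and Csf2ra, in red, had adjusted p below 0.05; the dotted line is the median of all genes, 0.04.

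Csf1, whose product maintains macrophages, was at 2.91, 2.07 and 3.30 FPKM in sulfatide replicates 1, 2 and 3 and at 7.00, 8.31 and 6.82 FPKM in vehicle replicates 2, 3 and 4. The groups did not overlap: the highest sulfatide library lay below the lowest vehicle library. The share of all tested genes without such overlap was not counted, so this separation, here and below, is a description only. Mean levels were 2.76 ± 0.629 FPKM in sulfatide and 7.38 ± 0.813 FPKM in vehicle (SD, n = 3 each), 2.67-fold lower in sulfatide. Csf1 fell by 1.17 on the log2 scale (SE 0.15, limma adjusted p = 0.000919). The gene lies on chromosome 3, 107741048 to 107760469, minus strand (GRCm38).

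Csf3, which encodes the neutrophil growth factor G-CSF, was at 0.69, 1.22 and 0.63 FPKM in sulfatide replicates 1, 2 and 3 and at 5.62, 4.41 and 2.10 FPKM in vehicle replicates 2, 3 and 4. The groups again did not overlap, and within vehicle the level of replicate 4 was the lowest. Means were 0.847 ± 0.325 FPKM in sulfatide and 4.04 ± 1.79 FPKM in vehicle (SD, n = 3 each), 4.78-fold lower in sulfatide. Csf3 fell by 1.39 on the log2 scale (SE 0.26, limma adjusted p = 0.00691). Of the sulfatide libraries only replicate 2 reached 1 FPKM, so Csf3 passed the filter mainly through the vehicle libraries. With no filter on low values Csf3 was called lower too (limma adjusted p = 0.0276). It lies on chromosome 11, 98701263 to 98703629, plus strand.

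Csf2, which encodes GM-CSF, was listed at 0 in all 3 sulfatide libraries and at 0.82, 4.31 and 0.32 FPKM in vehicle replicates 2, 3 and 4. The vehicle libraries differed widely among themselves, and only replicate 3 reached 1 FPKM, so Csf2 was not tested in the fit. An exact permutation test on log2(FPKM + 1) gave p = 0.1 (2-sided), the smallest that 3 against 3 libraries can give. With no filter on low values limma gave an adjusted p of 0.149 over 15223 genes. The vehicle mean of 1.82 FPKM was 0.57 FPKM without replicate 3. Csf2 lies on chromosome 11, 54247271 to 54249667, 15635 bases from Il3, the interleukin 3 gene, which was listed at 0 in all 6 libraries.

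**Figure D2:**
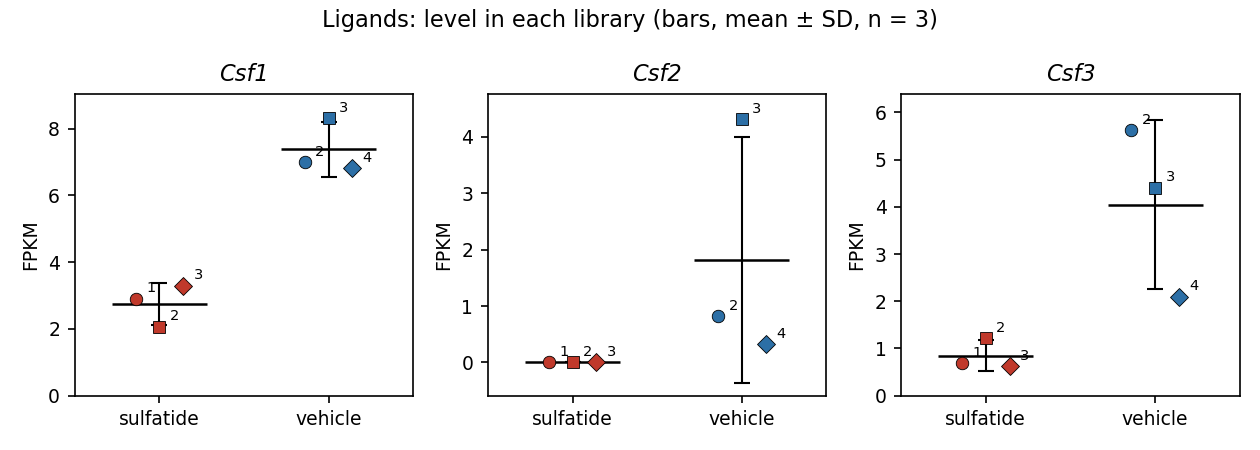
FPKM (vertical axis, a separate scale for each gene) of Csf1, Csf2 and Csf3 in the 3 sulfatide (red) and 3 vehicle (blue) libraries, numbered by replicate, with mean ± SD. Each sulfatide library lies below each vehicle library for all 3 ligands, and Csf2 was listed at 0 in sulfatide. How many of all genes separate the groups was not counted.

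The promoter of Csf1 is shown because the gene fell and this window holds a motif of NF-kB, the factor through which interleukin 1 and Tnf act on cytokine genes. It was taken from RefSeq (GRCm38.p6) as the 250 bases before to 50 after the start, chr3:107760420-107760719, minus strand, and capitals mark the NF-kB consensus motif, searched on both strands. The match lies 154 to 145 bases before the start. The motif occurs in 4.51% of 32851 promoters of this length. Csf1 was the only 1 of the 5 members with a matched promoter to hold it, and Csf3 had no matched promoter to search. Whether NF-kB acts on Csf1 in these cells was not tested.
Csf1: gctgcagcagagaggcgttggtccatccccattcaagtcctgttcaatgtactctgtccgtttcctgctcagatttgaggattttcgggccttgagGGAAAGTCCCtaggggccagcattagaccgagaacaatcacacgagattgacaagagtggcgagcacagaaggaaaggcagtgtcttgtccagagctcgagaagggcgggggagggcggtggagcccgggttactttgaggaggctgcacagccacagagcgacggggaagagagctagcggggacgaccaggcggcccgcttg

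Genes that induce or decay the ligand messages were lower in part. Of 15 tested genes of this list 8 fell and 0 rose (53.3% called, against 18.7% of all genes), with a median log2 fold change of -0.49 against 0.04 over all genes. Il1a, which encodes interleukin 1 alpha, averaged 12.0 ± 2.67 FPKM in sulfatide and 175 ± 52.3 FPKM in vehicle (SD, n = 3 each; adjusted p = 2.89e-05). Il1b, which encodes interleukin 1 beta, averaged 273 ± 61.4 FPKM in sulfatide and 2253 ± 566 FPKM in vehicle (adjusted p = 5.26e-05). Tnf (adjusted p = 0.000111) and the NF-kB subunit gene Nfkb1 (85.0 ± 6.08 FPKM in sulfatide and 204 ± 15.2 FPKM in vehicle, adjusted p = 7.13e-05) fell too. The RNA decay genes Zc3h12a (log2 fold change -0.68 ± 0.10, SE, adjusted p = 0.00164) and Zfp36 (-0.50 ± 0.09, adjusted p = 0.00646) also fell. Il33, an alarm cytokine that can induce Csf2, did not reach the level for testing, with 0.09, 0.33 and 0.12 FPKM in sulfatide replicates 1, 2 and 3 and 1.48, 0.83 and 1.74 FPKM in vehicle replicates 2, 3 and 4.

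Among the receptors Csf1r, the receptor of Csf1, was by far the most abundant, 276th of all genes by mean FPKM. It was at 573, 706 and 694 FPKM in sulfatide replicates 1, 2 and 3 and at 748, 674 and 915 FPKM in vehicle replicates 2, 3 and 4. The groups overlapped, since vehicle replicate 3 lay below sulfatide replicates 2 and 3. The log2 fold change was -0.24 ± 0.13 (SE, adjusted p = 0.226) with a 95% interval of -0.53 to 0.05. Leaving out vehicle replicate 4 gave -0.12, and leaving out sulfatide replicate 1 gave -0.14. Il34, which encodes the other ligand of this receptor, was at 0.63 to 0.90 FPKM in sulfatide and 0.57 to 1.08 FPKM in vehicle libraries and was not tested.

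Csf2ra, the alpha chain that binds GM-CSF, was at 91.3, 106 and 86.2 FPKM in sulfatide replicates 1, 2 and 3 and at 140, 126 and 169 FPKM in vehicle replicates 2, 3 and 4. Every sulfatide library lay below every vehicle library. Means were 94.4 ± 10.1 FPKM in sulfatide and 145 ± 22.3 FPKM in vehicle (SD, n = 3 each), 1.54-fold lower in sulfatide. Csf2ra fell by 0.61 on the log2 scale (SE 0.12, limma adjusted p = 0.0105).

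Csf2rb, the beta chain shared by the receptors of GM-CSF, interleukin 3 and interleukin 5, was at 61.0, 83.4 and 77.9 FPKM in sulfatide replicates 1, 2 and 3 and at 96.1, 81.4 and 117 FPKM in vehicle replicates 2, 3 and 4. The groups touched, with vehicle replicate 3 just below sulfatide replicate 2. Its log2 fold change was -0.40 ± 0.15 (SE, adjusted p = 0.103, 95% interval -0.74 to -0.05), and it was called without vehicle replicate 3 (-0.52, adjusted p = 0.0295) and with array weights (-0.39, adjusted p = 0.0312). Leaving out sulfatide replicate 1 or vehicle replicate 4 gave -0.26 each. Csf2rb2, the interleukin 3 beta chain, was at 35.3, 48.1 and 43.3 FPKM in sulfatide replicates 1, 2 and 3 and at 48.4, 37.3 and 67.7 FPKM in vehicle replicates 2, 3 and 4, with overlapping groups. Its log2 fold change was -0.24 ± 0.20 (SE, adjusted p = 0.428, 95% interval -0.69 to 0.21), and this value rested on single libraries, at -0.02 without vehicle replicate 4, -0.44 without vehicle replicate 3 and -0.12 without sulfatide replicate 1. Il3ra, the alpha chain for interleukin 3, was at 26.9 ± 3.20 FPKM in sulfatide and 30.3 ± 2.17 FPKM in vehicle (SD, n = 3 each; adjusted p = 0.312), while Il5 and the interleukin 5 alpha chain gene Il5ra were listed at 0 in all 6 libraries.

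The beta chain genes are near copies that lie 20030 bases apart on chromosome 15, Csf2rb2 at 78282507 to 78305721 (minus strand) and Csf2rb at 78325752 to 78353847 (plus strand). Their coding sequences of 2634 bases for Csf2rb2 and 2688 bases for Csf2rb were identical at 95.2% of 2628 aligned bases, with a longest shared run of 242 bases. Of all 150-base windows of the Csf2rb coding sequence, the read length of the libraries, 6.50% occurred unchanged in the Csf2rb2 transcript. The other coding windows hold at least 1 difference. How fragments were divided between the genes in the deposited values is not known. Summed into 1 gene, they had a log2 fold change of -0.34 (adjusted p = 0.182). Among stretches without a gap, the 90 aligned coding bases with the most differences, 16 of them, are shown because they help tell the genes apart. They are bases 308 to 397 of Csf2rb and 311 to 400 of Csf2rb2, counted from the start codon, with capitals where they differ.
Csf2rb: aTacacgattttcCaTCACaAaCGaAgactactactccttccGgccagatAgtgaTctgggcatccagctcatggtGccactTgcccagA
Csf2rb2: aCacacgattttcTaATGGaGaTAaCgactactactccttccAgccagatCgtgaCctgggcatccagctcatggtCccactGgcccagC

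Csf3r, the G-CSF receptor, was at 55.9, 68.9 and 67.2 FPKM in sulfatide replicates 1, 2 and 3 and at 55.8, 40.6 and 57.2 FPKM in vehicle replicates 2, 3 and 4. It was the only tested member with a positive log2 fold change, 0.33 ± 0.14 (SE, 95% interval 0.00 to 0.65), and it was not called (adjusted p = 0.144). The value was 0.17 without vehicle replicate 3 (adjusted p = 0.291) and 0.22 after rescaling to TPM. Csf3r marks neutrophils, so the 14 neutrophil markers are given beside it. They summed to 408 to 572 FPKM in sulfatide and 139 to 193 FPKM in vehicle libraries, and 6 of them were tested. S100a8, which macrophages can also express, rose to 419 ± 55.3 FPKM in sulfatide, against 105 ± 11.7 FPKM in vehicle (SD, n = 3 each; adjusted p = 3.33e-05). Mmp8 rose as well (adjusted p = 0.0439), but did not pass after rescaling to TPM (0.0776), with quantile normalization (0.0529) or no filter (0.103), or without sulfatide replicate 2 (0.109), sulfatide replicate 3 (0.105), vehicle replicate 3 (0.0739) or vehicle replicate 4 (0.126). The other 4 tested markers had negative log2 fold changes and were not called. These were S100a9 (-0.15, limma adjusted p = 0.804), Camp (-0.45, 0.0519), Ngp (-0.24, 0.586) and Mmp9 (-0.65, 0.0978). Without S100a8, the other 13 markers summed to 46.8 to 102 FPKM in sulfatide and 47.3 to 79.2 FPKM in vehicle libraries. Cxcr1 was listed at 0 throughout, Ly6g reached at most 0.18 FPKM and Cxcr2 at most 0.12 FPKM, and the part of neutrophils in the Csf3r level was not tested.

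**Figure D3:**
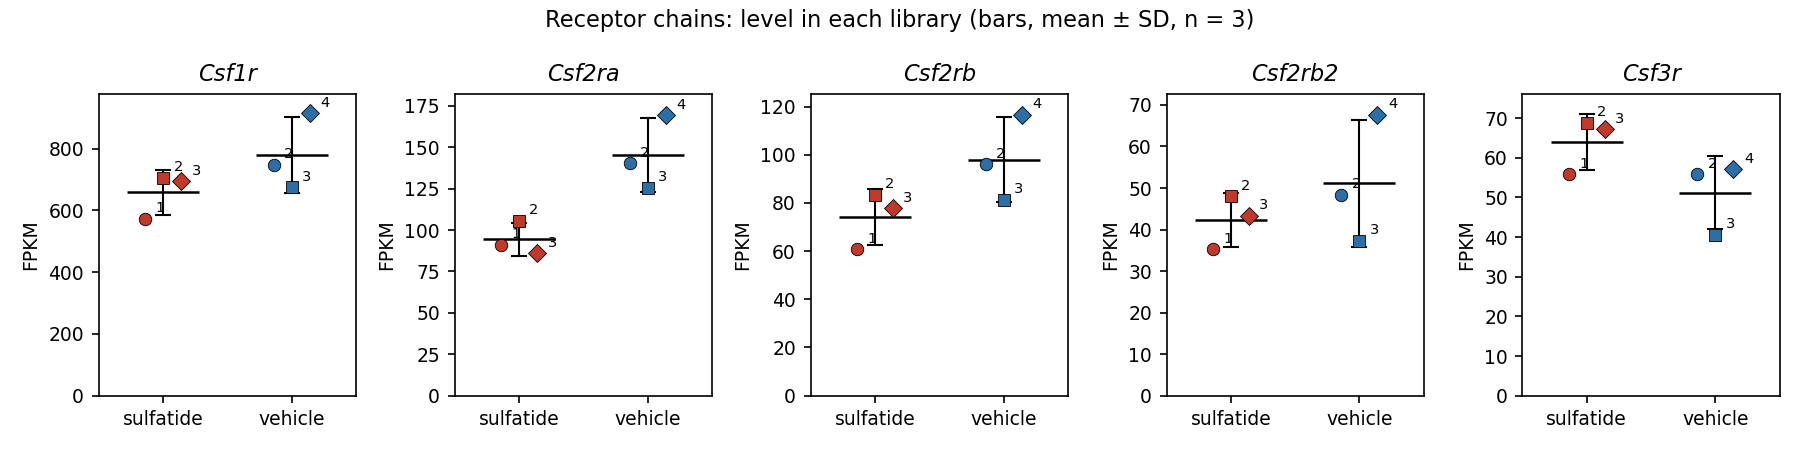
FPKM (vertical axis from 0, a separate scale for each gene) of the 5 receptor chains in the 3 sulfatide (red) and 3 vehicle (blue) libraries, numbered by replicate, with mean ± SD. Of these 5 chains only Csf2ra separates the groups, and vehicle replicate 4 is the highest vehicle library in each panel. How many of all genes separate the groups was not counted.

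Library differences were shared among the receptors. Vehicle replicate 4 had the highest and vehicle replicate 3 the lowest vehicle level of all 5 receptor chains, whereas for the ligands Csf1 and Csf2 vehicle replicate 3 was the highest. Sulfatide replicate 1 had the lowest sulfatide level of Csf1r, Csf2rb, Csf2rb2 and Csf3r. Ratios within a library, which no scaling of libraries alters, were therefore compared after these values were seen. Per 1000 FPKM of Csf1r there were 97.5, 97.5 and 96.8 FPKM of Csf3r in sulfatide replicates 1, 2 and 3 and 74.6, 60.3 and 62.6 FPKM in vehicle replicates 2, 3 and 4. The level of Csf2ra was 0.159, 0.150 and 0.124 of that of Csf1r in sulfatide replicates 1, 2 and 3 and 0.188, 0.186 and 0.185 of it in vehicle replicates 2, 3 and 4. Neither ratio overlapped between groups, and each gave an exact 2-sided permutation p of 0.1, the smallest possible with these 6 libraries, or 0.15 adjusted over the 6 ratios computed. The ratio of Csf2ra to its partner Csf2rb was 1.29 ± 0.196 in sulfatide and 1.49 ± 0.0506 in vehicle (SD, n = 3 each; exact permutation p = 0.3, 2-sided, 0.36 adjusted), with overlapping groups. Csf2rb was at 0.112 ± 0.00588 of the Csf1r level in sulfatide and 0.126 ± 0.00423 of it in vehicle, without overlap (exact permutation p = 0.1). Relative to Csf2rb2, Csf2rb was at 1.75 ± 0.0391 in sulfatide and 1.96 ± 0.228 in vehicle, with overlap (exact permutation p = 0.4).

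**Figure D4:**
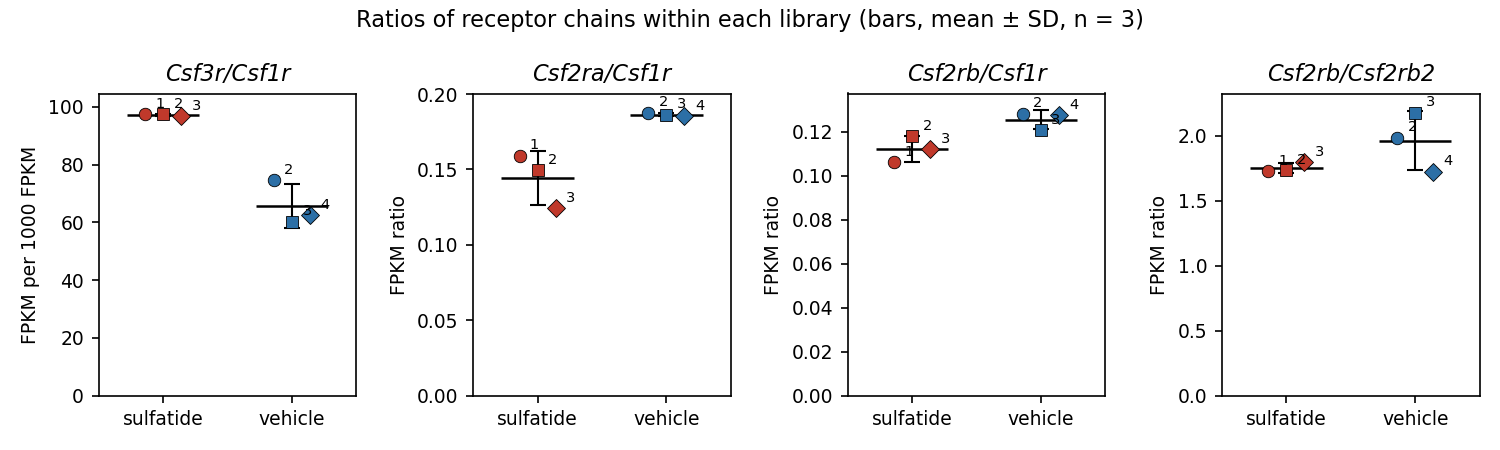
Ratios of FPKM between receptor chains within each library (vertical axes from 0; Csf3r per 1000 FPKM of Csf1r) for sulfatide (red) and vehicle (blue), numbered by replicate, with mean ± SD. Csf3r relative to Csf1r was higher and Csf2ra relative to Csf1r lower in each sulfatide library than in any vehicle library.

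FPKM are scaled to length, so levels can be ordered across genes. In sulfatide libraries mean FPKM ran, from high to low, Csf1r, Csf2ra, Csf2rb, Csf3r, Csf2rb2, Csf1, Csf3 and Csf2, and only the neighbours Csf2rb and Csf3r overlapped. In vehicle libraries the order of means was the same. There Csf3r (51.2 ± 9.19 FPKM) and Csf2rb2 (51.1 ± 15.4 FPKM; SD, n = 3 each) overlapped, as did Csf3 and Csf2.

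The promoter of Csf2ra, the receptor chain that fell, is shown because it holds the motif GAGGAAG of PU.1 (Spi1), the myeloid factor that binds Csf receptor genes. It spans chr19:61228369-61228668, minus strand (RefSeq, GRCm38.p6), and its start lies 11 bases from that of GENCODE M21. Capitals mark 2 matches, 14 to 8 and 8 to 2 bases before the start, which share 1 base. The motif, on either strand, occurs in 13.6% of 32851 promoters. No RefSeq promoter was matched for Csf3, Csf1r or Csf2rb, which leaves 5 of the 8 members. Of these 5, Csf3r had 1 match of PU.1 and Csf2rb2 had 2. The window of Csf2 held none of the 3 motifs. None of the 5 held the AP-1 motif TGANTCA, which occurs in 7.81% of promoters. The RefSeq start lies 109 bases from that of GENCODE for Csf3r and 232 bases for Csf2. The Csf3r window may thus miss part of the promoter. The Csf2 window, chr11:54249850-54250149 on the minus strand, lies wholly before the GENCODE start at 54249667. Bases next to that start were not searched, so the lack of motifs in the Csf2 window says nothing of them.
Csf2ra: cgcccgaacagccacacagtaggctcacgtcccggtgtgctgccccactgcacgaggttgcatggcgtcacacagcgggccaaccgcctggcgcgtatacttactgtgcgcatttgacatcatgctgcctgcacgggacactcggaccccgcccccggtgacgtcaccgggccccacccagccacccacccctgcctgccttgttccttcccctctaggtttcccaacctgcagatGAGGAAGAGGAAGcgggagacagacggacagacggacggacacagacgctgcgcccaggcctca

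Of 8 tested transcription factors tied to Csf receptor expression, 3 fell and 0 rose, with a median of -0.29. That is 37.5% called, against 18.7% of all genes. With array weights, a filter of 5 FPKM or replicate number as a block, or without vehicle replicate 4, 1 rose. Spi1 was level, at 1375 ± 68.8 FPKM in sulfatide and 1375 ± 39.8 FPKM in vehicle (SD, n = 3 each; log2 fold change -0.00 ± 0.08, SE, adjusted p = 0.999). Gfi1, a repressor that acts in granulocyte development, fell to 0.20, 0.40 and 0.57 FPKM in sulfatide replicates 1, 2 and 3, against 3.17, 3.34 and 2.21 FPKM in vehicle replicates 2, 3 and 4 (adjusted p = 0.000435). Gfi1, too, passed the filter only through the vehicle libraries, where it was higher. With no filter on low values Gfi1 was called lower as well. Ets2 averaged 20.0 ± 6.25 FPKM in sulfatide and 51.5 ± 4.32 FPKM in vehicle (SD, n = 3 each; adjusted p = 0.00108). Maf, a macrophage factor, fell with overlapping groups (adjusted p = 0.0316) but did not pass with no filter on low values (0.0853) or without vehicle replicate 2 (0.129), vehicle replicate 4 (0.107), sulfatide replicate 1 (0.0898) or sulfatide replicate 3 (0.0839).

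Genes that act behind the common beta chain were lower in part, with 6 of 14 tested genes lower and 0 higher. That is 42.9% called, against 18.7% of all genes, with a median log2 fold change of -0.32. Cish, a feedback inhibitor and target of Stat5, was at 0.51, 0.13 and 0.37 FPKM in sulfatide replicates 1, 2 and 3 and at 3.07, 5.41 and 1.70 FPKM in vehicle replicates 2, 3 and 4 (log2 fold change -1.64 ± 0.28, SE, adjusted p = 0.00402). Cish passed the filter only through the vehicle libraries, so it could enter the test only as a gene higher in vehicle. With no filter on low values Cish was called lower too. The survival kinase gene Pim1 averaged 83.2 ± 0.948 FPKM in sulfatide and 180 ± 6.82 FPKM in vehicle (SD, n = 3 each; adjusted p = 5.03e-05), and the feedback inhibitor Socs1 averaged 19.0 ± 1.47 FPKM in sulfatide and 62.9 ± 8.60 FPKM in vehicle (adjusted p = 5.85e-05). Both are also induced by other cytokines. Stat5a (17.2 ± 0.617 FPKM in sulfatide and 19.7 ± 1.60 FPKM in vehicle, adjusted p = 0.233) and Stat5b (9.78 ± 1.63 FPKM in sulfatide and 10.1 ± 1.00 FPKM in vehicle, adjusted p = 0.829) did not pass. Jak2 fell (adjusted p = 0.0292) and Socs3 fell (0.0216), but without vehicle replicate 2 neither passed (0.127 and 0.0957), nor without sulfatide replicate 1 (0.0826 and 0.0793) or replicate 3 (0.116 and 0.0933), nor did Socs3 without vehicle replicate 4 (0.0632). The number of lower genes was 3 without vehicle replicate 2, sulfatide replicate 1 or sulfatide replicate 3, each left out in turn. It was also 3 with replicate number as a block.

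Of 16 genes that act behind Csf1r or shed it, 3 fell and 1 rose (median -0.01), a share of 25.0% called that is near the 18.7% of all genes. The kinase gene Syk averaged 76.6 ± 12.6 FPKM in sulfatide and 139 ± 20.9 FPKM in vehicle (adjusted p = 0.00346), the adaptor gene Dok2 averaged 42.8 ± 2.10 FPKM in sulfatide and 65.1 ± 4.81 FPKM in vehicle (adjusted p = 0.00232), and Adam17, whose protease cuts Csf1r from the surface, averaged 118 ± 14.7 FPKM in sulfatide and 177 ± 4.78 FPKM in vehicle (SD, n = 3 each; adjusted p = 0.00393). Tyrobp, the adaptor DAP12, rose to 2177 ± 112 FPKM in sulfatide, against 1705 ± 50.4 FPKM in vehicle (adjusted p = 0.017). Tyrobp did not pass after rescaling to TPM (0.0528) or quantile normalization (0.104), nor without vehicle replicate 2 (0.0899), vehicle replicate 4 (0.0529) or sulfatide replicate 3 (0.0845). Behind Csf3r 4 of 14 genes fell and 0 rose (28.6% called; median -0.18). Among them were Jak2, Socs3 and the myeloid factor gene Cebpb (865 ± 101 FPKM in sulfatide and 1249 ± 153 FPKM in vehicle, adjusted p = 0.0146). The count of lower genes was 0 without sulfatide replicate 1 or replicate 3, 1 without vehicle replicate 2 and 2 without vehicle replicate 4, and 1 gene rose without sulfatide replicate 2.

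**Figure D5:**
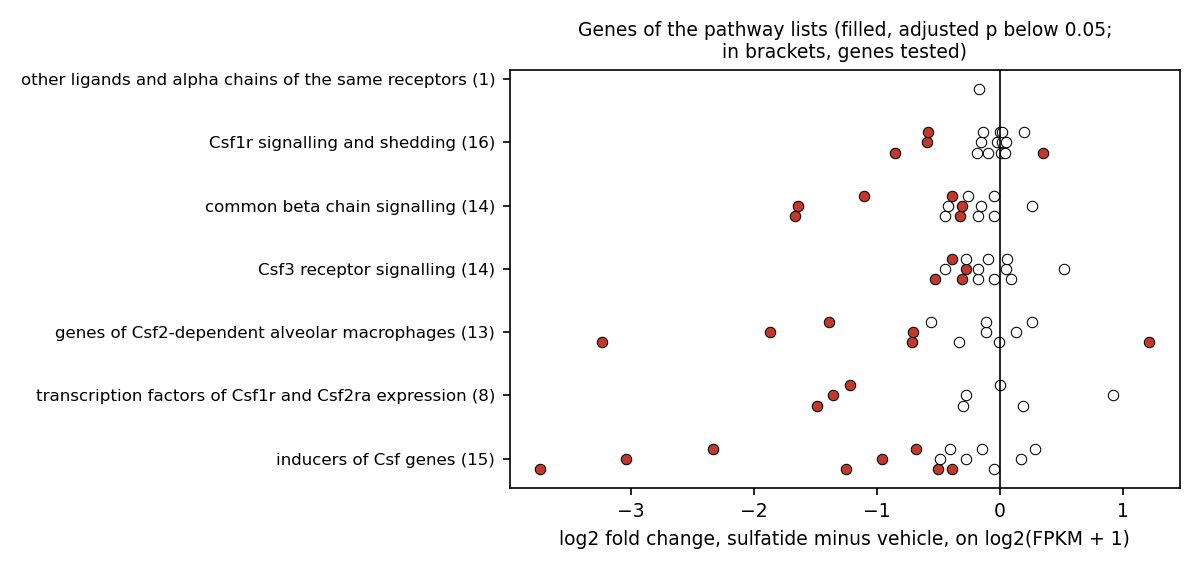
Log2 fold change (sulfatide minus vehicle, on log2(FPKM + 1), horizontal axis) of each tested gene of the 7 pathway lists, 1 point per gene, filled where adjusted p was below 0.05. Filled points lie mostly left of 0, and Fabp5 and Tyrobp are the filled points on the right.

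Genes typical of alveolar macrophages that depend on GM-CSF moved in both directions. Of 13 tested, 5 fell and 1 rose, with a median of -0.34, and with no filter 2 rose. That is 46.2% called, against 18.7% of all genes. Fabp5, a fatty acid binding protein gene, rose to 892 ± 57.6 FPKM in sulfatide, against 384 ± 15.6 FPKM in vehicle (SD, n = 3 each; adjusted p = 4.66e-05). Plet1 averaged 3.39 ± 1.56 FPKM in sulfatide and 39.7 ± 11.1 FPKM in vehicle (adjusted p = 0.000114), and Il18 and the lipoprotein lipase gene Lpl fell as well (adjusted p = 8.68e-05 and 0.000173). Pparg, the nuclear receptor that GM-CSF induces in these cells, was at 0.893 ± 0.341 FPKM in sulfatide and 1.03 ± 0.135 FPKM in vehicle (adjusted p = 0.655).

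Cells other than macrophages can also make the ligands, so markers of such cells are given. Of 12 T, NKT and NK cell markers, Cd3e, Cd3g, Trbc2, Zbtb16 and Nkg7 were listed at 0 in all 6 libraries, and the 12 summed to 2.12 to 3.42 FPKM in sulfatide and 3.50 to 6.26 FPKM in vehicle libraries. Most of that sum was Il7r, the interleukin 7 receptor, which fell to 2.10 ± 0.491 FPKM in sulfatide, against 4.34 ± 1.32 FPKM in vehicle (SD, n = 3 each; adjusted p = 0.0318). Il7r did not pass with no filter (0.0779) or without sulfatide replicate 1 (0.0991), sulfatide replicate 3 (0.0808), vehicle replicate 2 (0.129) or vehicle replicate 4 (0.103). The other 11 summed to 0.49 to 0.90 FPKM in sulfatide and 0.64 to 1.01 FPKM in vehicle libraries. The 8 markers of mast cells, basophils and eosinophils summed to 3.91 to 13.0 FPKM in sulfatide and 5.46 to 12.2 FPKM in vehicle libraries. With Sftpc, Sftpa1, Krt8, Krt18 and Lamp3 at 0, the 10 epithelial markers summed to 1.59 to 2.95 FPKM in sulfatide and 1.43 to 3.05 FPKM in vehicle libraries. The 8 fibroblast and mural markers summed to 53.3 to 69.5 FPKM in sulfatide and 58.7 to 76.4 FPKM in vehicle libraries, and 1 of them, Pdgfrb, fell (1.83 ± 0.206 FPKM in sulfatide and 6.33 ± 0.540 FPKM in vehicle, adjusted p = 0.000137). The 6 endothelial markers summed to 1.04 to 1.16 FPKM in sulfatide and 1.31 to 1.68 FPKM in vehicle libraries. The part of such cells in the ligand levels was not tested.

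The genes whose levels followed a member most closely over the 6 libraries were taken from 7970 genes with a mean of at least 5 FPKM, by Pearson correlation of log2(FPKM + 1). These correlations are descriptions over few libraries that also carry the group difference. Mfsd7a (r = 0.999), Ier3 (0.991) and Ahnak (0.989) were nearest to Csf1, and Rnf14 (0.997), Gramd1b (0.994) and Septin11 (0.994) to Csf3. Nearest to Csf2ra were Marcks (0.995), Khnyn (0.993) and Cpt1a (0.992). The 3 genes nearest to Csf1r were Pacs2 (0.987), Asph (0.983) and the member Csf2rb (0.982), and Sdc1 was nearest to Csf2rb (0.996), Agtrap to Csf2rb2 (0.990) and Ppil4 to Csf3r (0.989).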

How the data were processed

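RNA was taken up in TRIzol, selected by poly(A) and made into strand-specific libraries, sequenced as paired 150-base reads, per the labels' protocols. The submitters' processing notes name the build mm10. No aligner, counting program or annotation was given in the sources used here. The authors deposited 1 table of FPKM, rounded to 2 decimals. Its 3 value columns that match no sample were not used. No 2 libraries held identical values.

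Values were analysed as log2(FPKM + 1) with limma 3.58.1 in R 4.3.3 (lmFit, eBayes with trend, 2-sided, Benjamini-Hochberg over 10405 genes at 1 FPKM or more in at least 3 libraries). The fit was tested on simulated data. Fold changes on this scale understate those of low genes; folds are ratios of mean FPKM. The members and lists were chosen with earlier results of these data known. Named list genes are the called ones with the smallest adjusted p, up to 4 per list, plus Il34, Jak2, Stat5a, Stat5b, Pparg and Spi1. Il33, Zfp36, Zc3h12a, Il3, Il5, Il3ra, Il5ra, Pdgfrb, Cd14, Il7r, Mmp8, S100a9, Camp, Ngp and Mmp9 lie outside that rule, as do markers given by level. All of these were picked with their values known. Some listed genes and markers are not reported here. The alternatives tried were a pseudocount of 0.1 or 0.5, a filter of 5 FPKM or none, rescaling to TPM, quantile normalization, array weights, a replicate block, leaving out each library and summing Csf2rb with Csf2rb2.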

Additional observations from a re-analysis of the deposited data

How the results depend on the processing

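Csf1, Csf3 and Csf2ra were called lower under all alternatives that could test them, with log2 fold changes of -1.41 to -1.02 for Csf1, -2.07 to -1.16 for Csf3 and -0.72 to -0.47 for Csf2ra. Csf3 could not be tested at a filter of 5 FPKM, and Csf2 was tested only with no filter. Csf1r (-0.35 to -0.02), Csf2rb2 (-0.44 to 0.10) and Csf3r (0.17 to 0.51) were called under none. Csf2rb was called with array weights (-0.39) and without vehicle replicate 3, and its log2 fold change ran from -0.52 to -0.26 as each library was left out and from -0.52 to -0.13 over all alternatives. Genes called higher over the whole table numbered 865. They numbered 2054 with array weights, 522 with no filter, 467 after rescaling to TPM and, leaving out a library, 354 without sulfatide replicate 1, 450 without sulfatide replicate 3, 268 without vehicle replicate 2, 1421 without vehicle replicate 3 and 432 without vehicle replicate 4. Genes called lower numbered 1078, and 1723 with array weights, 682 without sulfatide replicate 3 and 642 to 1135 over all left-out libraries, the lowest being without vehicle replicate 2. The cause of these differences was not tested. Of 196 counts of called genes in the pathway lists recomputed, 173 were within 1.5 times of the value given. Pairs of 0 and 0 are among the 173, so this number is a weak measure of how steady the counts were.

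The groups share the replicate numbers 2 and 3 in the labels. Deviations from the group mean correlated at 0.16 between libraries numbered 2 and at -0.30 between those numbered 3, so the numbers were not taken as pairs. With the replicate block 297 genes were called higher and 635 lower, and Csf2rb2 had a log2 fold change of 0.10 (adjusted p = 0.693), with the opposite sign. Under that block Csf1r was at -0.02 (adjusted p = 0.931), Csf2rb at -0.13 (0.540) and Csf3r at 0.51 (0.0707). Cebpb (limma adjusted p = 0.0704), Jak2 (0.0782), Socs3 (0.0840), Tyrobp (0.0532) and Il7r (0.131) did not pass with the block. Absolute depth is unknown, which limits statements on Csf2, Il33 and other genes near 1 FPKM, and 3 libraries a group limit the precision of every value.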
